A study of Mus musculus with 46 samples.

Results

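The interval between 8 h and 1 d after a single injection of carbon tetrachloride (CCl4) was examined in mouse liver, by setting the 5 arrays at 1 d against the 5 arrays at 8 h out of 46 arrays in the series. Both groups were livers of male C57BL/6N mice, 8 to 10 weeks old, that had received 1.6 g/kg CCl4 in olive oil intraperitoneally and were fed a standard diet. Livers of untreated mice of the same strain, sex and age (time zero, 5 arrays) and livers taken at other times after the injection are given only as levels beside the step. Because both groups were injected, the injection and the oil are shared by the 2 groups, but they differ between either group and the untreated controls, for which no oil injection is stated. The sources used here do not give the time of day of sampling. They do not state that the 5 arrays of a time were 5 separate animals either, and every p-value below is therefore about variation from array to array, part of which may be technical. Values are log2 expression values from RMA, a method that brings arrays to a common distribution, and each gene was read from 1 probe set.

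CCl4 damages the liver once it has been converted to a reactive radical inside hepatocytes, chiefly by the cytochrome P450 enzyme Cyp2e1, which is made around the central veins. Cells with damaged proteins respond with chaperones in the cytosol and in the endoplasmic reticulum, while dying hepatocytes are cleared by phagocytes, both resident Kupffer cells and macrophages that arrive as blood monocytes. Surviving hepatocytes later enter the cell cycle to restore the organ. In whole liver, fewer cells of a type and less RNA per cell cannot be told apart.

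Between 8 h and 1 d the genes with the largest rises were those of phagocytes, secreted lectins and the cytoskeleton, and the genes with the largest falls were heat shock chaperones and hepatocyte enzymes of steroid, lipid and drug metabolism. Of 13239 genes tested, 4194 (31.7%) were called at an adjusted p under 0.05 (limma with Benjamini-Hochberg adjustment), 2751 higher at 1 d (20.8%) and 1443 lower (10.9%). At least a 2-fold change was seen in 354 called genes (2.67%), of which 162 were lower and the others higher. For 2159 genes (16.3%) the arrays of the groups did not overlap. The median log2 difference of all genes tested was -0.01, and the median standard error (SE) of a difference was 0.0966. Higher genes made up 65.6% of the called genes in this fit. The share was 54.7% after a further quantile normalization, 54.1% after cyclic loess and 73.0% after each array was shifted to the same median. The balance of small rises and falls thus depends on how arrays are brought to a common scale.

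The arrays at 1 d were less alike than those at 8 h. Across genes, which are not independent replicates, arrays 3 to 5 at 1 d correlated with the others of their group at a mean r of 0.974 to 0.977, array 2 at 0.962 and array 1 at 0.95, against 0.984 to 0.986 for the arrays at 8 h. The first principal component of the 10 arrays (46% of the variance) separated 1 d from 8 h, the second (22%) set 1 d array 1 apart and the third (14.2%) set 1 d array 2 apart. Values without these 2 arrays are therefore given beside the results that they move most. The interquartile range of all values was 2.6 ± 0.0417 at 1 d and 2.51 ± 0.0357 at 8 h (SD, n = 5 each, exact permutation p = 0.00794, the smallest possible, adjusted p = 0.0318 over 4 array measures). The 3 prime minus 5 prime value of the Gapdh control probe sets, a measure of RNA integrity, was 0.169 ± 0.0925 at 1 d and 0.167 ± 0.0809 at 8 h (SD, n = 5 each, exact permutation p = 0.944).

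Lgals3, which encodes galectin 3, a sugar-binding protein abundant in activated macrophages, had the largest rise. It read 10.43, 9.71, 12.66, 12.46 and 12.41 in the 5 arrays at 1 d, against 6.70, 6.62, 7.51, 6.44 and 7.57 at 8 h. Every 1 d array lay above every 8 h array, with arrays 1 and 2 about midway between the 8 h level and arrays 3 to 5. The rise was 4.56 ± 0.49 on the log2 scale (SE), or 23.7-fold (adjusted p = 1.49e-09), and was 5.54 without 1 d arrays 1 and 2. The control mean was 6.34, close to the 8 h level.

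Chil3, a chitinase-like lectin secreted by alternatively activated macrophages, was high in all 1 d arrays. Its values were 8.76, 7.76, 7.64, 7.79 and 7.31 at 1 d, against 3.90, 3.73, 3.59, 3.76 and 3.77 at 8 h. Here array 1 at 1 d was the highest, so the low readings of arrays 1 and 2 for Lgals3 were not shared by every macrophage gene. The log2 difference was 4.10 ± 0.32 (adjusted p = 6.89e-13), with a dim 8 h level near the control mean of 3.91. Mmp12, the macrophage elastase, read 7.27, 7.64, 7.92, 8.67 and 7.58 at 1 d, against 4.41, 4.41, 4.53, 4.46 and 4.71 at 8 h, a log2 difference of 3.31 ± 0.41 (adjusted p = 3.25e-08). Marco, a scavenger receptor of phagocytes, read 8.46 to 9.66 at 1 d and 6.20 to 6.59 at 8 h, and Cd68, a lysosomal protein of macrophages, 7.59 to 8.6 at 1 d and 5.56 to 6.10 at 8 h. Both groups were apart for each of these genes, with rises of 2.69 ± 0.39 for Marco and 2.47 ± 0.18 for Cd68. The 2 probe sets of Marco ranged from 0.82 to 2.69, so the size of its rise is uncertain.

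S100a6, a small calcium-binding protein, showed the same division of the 1 d arrays as Lgals3. It read 6.49 and 6.51 in 1 d arrays 1 and 2 and 9.0, 9.09 and 9.11 in arrays 3 to 5, against 3.88 to 4.28 at 8 h. All 1 d arrays were above all 8 h arrays (difference of 3.94 ± 0.48, adjusted p = 1.97e-08). S100a8, a subunit of the calprotectin that neutrophils and monocytes carry, read 7.08 and 6.46 in 1 d arrays 1 and 2 and 9.09, 8.99 and 9.45 in arrays 3 to 5, against 4.60 to 5.79 at 8 h (rise of 2.94 ± 0.49, adjusted p = 7.73e-06). Slc25a24, a mitochondrial carrier of ATP and phosphate, and Anxa3, an annexin, were likewise lower in arrays 1 and 2 than in arrays 3 to 5, and rose by 2.73 ± 0.35 and 2.21 ± 0.32. Without the 2 arrays these rises were 4.96 for S100a6, 3.90 for S100a8, 3.79 for Slc25a24 and 3.27 for Anxa3, each still called. With all arrays the 2 probe sets of Slc25a24 ranged from 0.66 to 2.73, so the size of its rise is uncertain. Every SE and adjusted p of a gene uses 1 spread per gene, estimated over all 9 groups. For genes more spread at 1 d, such as Slc25a24 (SD 1.49 at 1 d, 0.52 at 8 h), they may be too small.

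**Figure D1:**
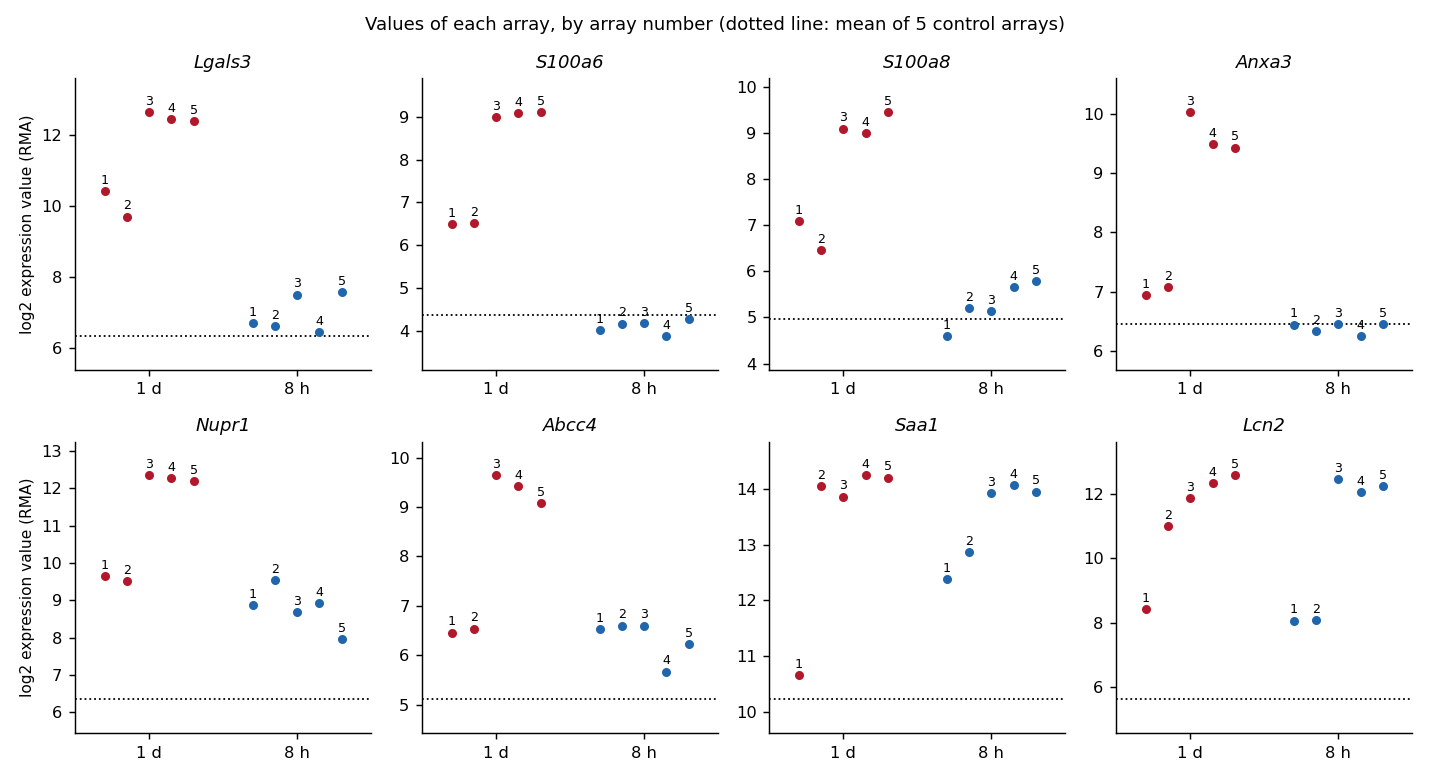
Log2 expression values of 8 genes in each of the 5 arrays at 1 d (red, left in each panel) and the 5 arrays at 8 h (blue, right), numbered by array, with the control mean as a dotted line. Arrays 1 and 2 at 1 d lie below arrays 3 to 5 for Lgals3, S100a6, S100a8, Anxa3, Nupr1 and Abcc4, and arrays 1 and 2 at 8 h lie below arrays 3 to 5 for Saa1 and Lcn2.

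Of the 15 genes with the largest rises without overlap 6, and of the 15 with the largest falls 3, had a mean in the dimmer group below 5.56, the filter level that a gene had to pass in at least 5 arrays. These were Chil3, S100a6, Mmp12, S100a8, Slc25a24 and Gla at 8 h and Hspa1a, Sult1e1 and Hectd2os at 1 d. No detection call was used here and such levels may be near background, so no fold is given for them and the order of the sizes is uncertain.

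The other large rises were of genes of the cytoskeleton, the lysosome and metabolism. Vim, the intermediate filament vimentin of mesenchymal and immune cells, rose by 2.46 ± 0.29, and Tmsb10, an actin-binding thymosin, by 2.39 ± 0.21. Lasp1, an actin-associated adaptor, rose by 2.27 ± 0.15, but its 9 probe sets ranged in their difference from -0.19 to 2.59 and the 5 of Tmsb10 from -0.13 to 2.47, so both rises are uncertain. Gla, a lysosomal galactosidase, rose by 2.40 ± 0.18, with its 3 probe sets ranging from 0.08 to 2.40. Sgk1, a kinase induced by glucocorticoids and by cell stress, rose by 2.30 ± 0.28, with its highest value (11.45) in 1 d array 2 and the other 1 d arrays between 9.04 and 9.50. Cyp4a14, a fatty acid hydroxylase under the receptor PPAR alpha, read 10.90 to 11.48 at 1 d and 5.69 to 10.87 at 8 h. Its rise of 2.40 ± 0.70 (adjusted p = 0.00663) was 1.62 with an adjusted p of 0.0547 without 8 h array 2, the array at 5.69.

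The largest fitted fall was that of Hspa1a, the stress-inducible cytosolic chaperone Hsp70. It read 7.0, 4.11, 4.35, 4.93 and 4.26 at 1 d, against 9.38, 8.42, 9.24, 9.53 and 9.72 at 8 h, with a control mean of 4.02. The 1 d arrays other than array 1 were near the control mean, and array 1 was in between. The fitted difference was -4.33 ± 0.48 (adjusted p = 2.83e-09), against a dim level in 4 of the 5 arrays at 1 d. Hspa1b, a nearly identical copy whose transcripts the probes may not separate, read 8.82 to 11.85 at 1 d and 12.38 to 13.05 at 8 h, against a control mean of 8.30.

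Sult1e1, the sulfotransferase that inactivates estrogens, was high at 8 h and back at the control level at 1 d. It read 3.79, 4.34, 4.35, 4.14 and 4.07 at 1 d, against 8.00, 7.56, 9.46, 8.78 and 7.41 at 8 h, where the control mean was 3.95. The groups lay far apart, with a log2 difference of -4.10. No array outside 8 h was above the filter level, so Sult1e1 was tested only because it was high at 8 h, and its difference is a description. Lpin1, a phosphatidate phosphatase and coactivator of lipid genes, also stood above control at 8 h and below it at 1 d. Its values were 6.11 to 7.93 at 1 d and 9.06 to 11.22 at 8 h, with a control mean of 8.92 (fall of -2.88 ± 0.39).

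The other genes with large falls ended below their control means at 1 d. Car3, a carbonic anhydrase that is abundant in hepatocytes, read 8.44, 11.57, 9.40, 9.63 and 8.87 at 1 d, against 13.76, 13.70, 13.56, 13.36 and 13.41 at 8 h, with a control mean of 14.16. The groups did not overlap, and the fall was -3.97 ± 0.39 or 15.7-fold (adjusted p = 1.54e-10), although its 4 probe sets ranged from -3.97 to 0.89, so the fall is uncertain. Thrsp, a regulator of fatty acid synthesis, fell by 3.52 on the log2 scale, Acss2, which makes acetyl-CoA from acetate, by 2.57, and Slc25a47, a mitochondrial carrier of the liver, by 2.03. The 3 probe sets of Thrsp ranged from -3.52 to -0.16 and the 3 of Acss2 from -2.57 to 0.08. Sult2a8, a hepatic bile acid sulfotransferase, fell by 2.23. The differences were -2.13 for Selenbp1, a selenium-binding protein, and -2.08 for Nlrp12, an inhibitory member of the NLR family. Hectd2os, annotated as an opposite-strand transcript, differed by -3.31 and Serpina4-ps1, annotated as a pseudogene, by -2.25.

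**Figure D2:**
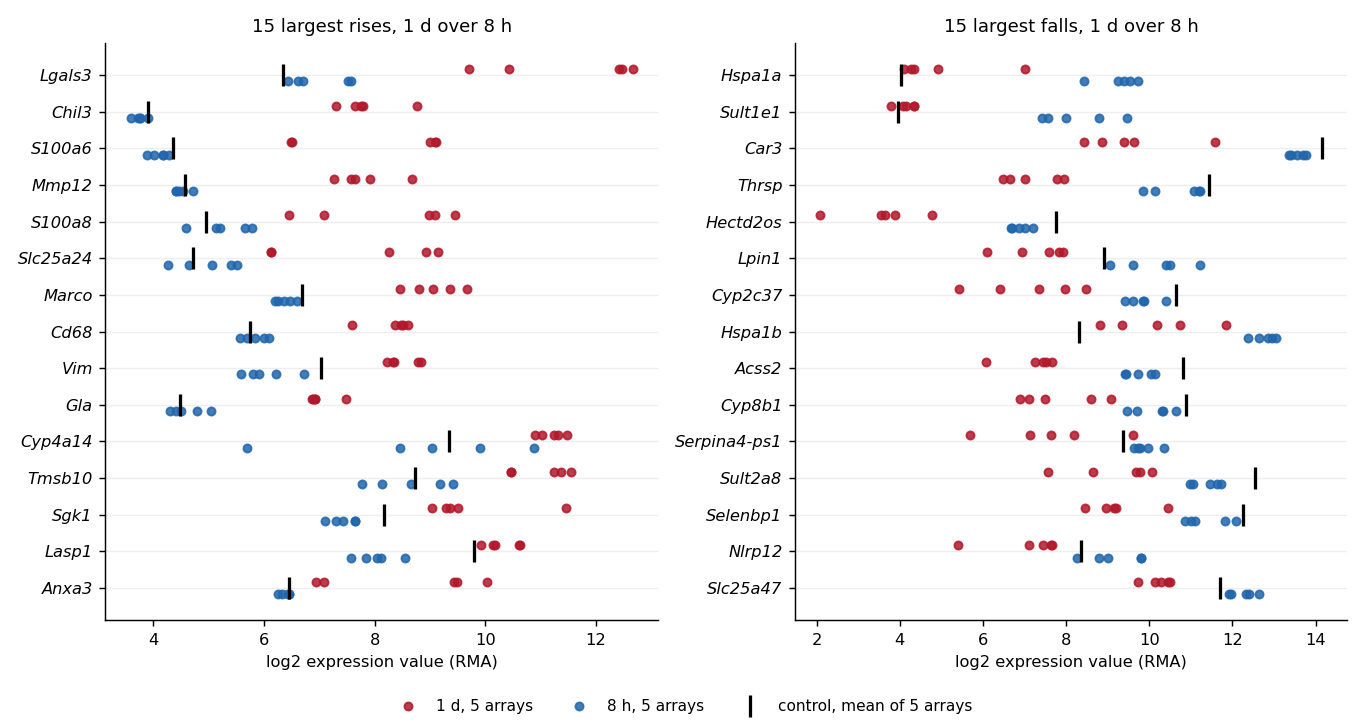
Log2 expression values of the 15 genes with the largest rises (left) and the 15 with the largest falls (right) among called genes whose arrays did not overlap, for the 5 arrays at 1 d (red, upper points of each row) and the 5 arrays at 8 h (blue, lower points), with the control mean as a black bar. Hspa1a and Sult1e1 at 1 d sit near the control bar, while Car3, Thrsp and Acss2 sit far below it.

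In 4 lists of cellular stress genes some members rose and others fell, and the list medians changed little. The lists used here were chosen with earlier results of these data known, and some genes stand on more than 1 list. Of 24 immediate early genes tested 5 were higher at 1 d and 7 lower, of 27 genes of the integrated stress response 4 higher and 6 lower, of 20 targets of the antioxidant factor Nrf2 5 higher and 6 lower, and of 14 p53 targets 3 higher and 1 lower. These counts are read against 20.8% higher and 10.9% lower over all genes tested, and the medians of these 4 lists lay between -0.15 and 0.02. Their median differences from control were 1.01, 1.05, 0.61 and 0.56 at 1 d, against 0.92, 1.10, 0.36 and 0.14 at 8 h, in the same order. Leaving out 1 d arrays 1 and 2 gave counts of 4 higher and 3 lower for immediate early genes and 9 higher and 5 lower for the integrated stress response.

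Single stress genes moved in both directions. Fos, a subunit of the transcription factor AP-1, read 7.59, 6.31, 7.70, 7.84 and 8.46 at 1 d, against 5.89, 5.85, 6.21, 6.52 and 6.03 at 8 h (rise of 1.48 ± 0.38, adjusted p = 0.0022). Only array 2 of the 1 d group reached into the 8 h range. Gadd45a, which slows the cell cycle after damage, read 7.09 to 8.08 at 1 d and 8.52 to 10.33 at 8 h, with a control mean of 5.54 (difference of -1.53 ± 0.39, adjusted p = 0.00218). Ier3, an early gene that affects cell survival, rose by 1.72, and Dusp5, a phosphatase that turns off MAP kinases, fell by 1.08.

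Atf3, a stress-induced repressor, and Ddit3, the pro-death factor CHOP, were called lower at 1 d. Atf3 read 8.07, 7.5, 9.73, 9.33 and 8.95 at 1 d, against 10.31, 9.94, 9.38, 10.07 and 9.14 at 8 h, and Ddit3 9.01, 9.05, 10.44, 10.72 and 10.07 at 1 d, against 10.98, 10.98, 10.45, 10.90 and 10.45 at 8 h. For both genes the lowest 1 d values were those of arrays 1 and 2, and the highest 1 d values lay inside the 8 h range. The differences of -1.05 (adjusted p = 0.00846) and -0.89 (adjusted p = 0.00147) became -0.43 (adjusted p = 0.324) and -0.34 (adjusted p = 0.188) without those 2 arrays, and that of Atf3 became -0.75 (adjusted p = 0.0586) without array 2 alone. The other probe set of Ddit3 differed by 0.09. Both genes were above their control means, 6.22 for Atf3 and 6.90 for Ddit3, in every 1 d array. Nupr1, a stress-induced chromatin protein, read 9.66 and 9.51 in 1 d arrays 1 and 2 and 12.20 to 12.35 in arrays 3 to 5, against 7.96 to 9.55 at 8 h (rise of 2.40 ± 0.35), and its rise was 3.48 without arrays 1 and 2. Atf5, a related stress factor, rose by 1.14 with no overlap, and Ppp1r15a, the phosphatase subunit that restores translation, fell by 1.01 with no overlap.

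Of the Nrf2 targets, Txnrd1, thioredoxin reductase, fell by 1.33 (adjusted p = 4.83e-08). Srxn1, sulfiredoxin, read 9.28 to 11.66 at 1 d and 11.47 to 12.26 at 8 h, with a control mean of 6.95, so it remained far above control. Abcc4, an efflux pump, read 6.46 and 6.54 in 1 d arrays 1 and 2 and 9.08 to 9.64 in arrays 3 to 5, against 5.67 to 6.60 at 8 h. Its 2 low arrays overlapped the 8 h range and its rise of 1.90 became 3.05 without them. Hmox1, heme oxygenase, differed by -0.84 (adjusted p = 0.0136), a call that ended without 8 h array 4 (-0.69, adjusted p = 0.0601) and without 1 d arrays 1 and 2 together (-0.72, adjusted p = 0.081). Among p53 targets, Zmat3, an RNA-binding protein, rose by 0.68 and Cdkn1a, the cell cycle inhibitor p21, differed by -0.05 ± 0.30 (adjusted p = 0.922) with 7.66 to 8.86 at 1 d and 7.25 to 8.77 at 8 h.

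The heat shock chaperones that were called moved one way and those of the endoplasmic reticulum both ways. Of 18 heat shock chaperones and cochaperones 0 were higher and 10 lower at 1 d (55.6% lower, against 10.9% of all genes tested), with a median difference of -0.61. Without Hspd1 and Hspe1, which act in mitochondria, 8 of the 16 cytosolic members were lower. The median difference from control of all 18 was 0.93 at 1 d, against 1.70 at 8 h. Bag3, a cochaperone of Hsp70, read 8.24 to 9.82 at 1 d and 9.94 to 10.60 at 8 h, above its control mean of 7.84 in both groups (difference of -1.53 ± 0.25, adjusted p = 5.17e-06). Of 22 endoplasmic reticulum chaperones and related proteins 6 were higher and 5 lower, with a median of 0.03 whose sign turned under quantile normalization (-0.06) and cyclic loess (-0.16, with 3 higher and 9 lower).

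Creld2, a secreted disulfide isomerase-like protein, read 10.28, 10.90, 9.60, 9.50 and 9.44 at 1 d, against 11.78, 11.82, 11.83, 12.03 and 11.86 at 8 h. The groups were well apart (difference of -1.92 ± 0.33, adjusted p = 1.13e-05). Herpud1, which helps in the degradation of misfolded proteins, and Dnajb9, a cochaperone of Hspa5, fell by 1.17 and 1.01, both without overlap. Canx, the lectin chaperone calnexin, rose by 0.56 ± 0.07 (adjusted p = 9.46e-08), with 11.28 to 11.46 at 1 d and 10.76 to 10.90 at 8 h. Pdia6, a disulfide isomerase, rose by 0.47 ± 0.11 (adjusted p = 0.000514), and its other probe set differed by 0.01. Hspa5, the master chaperone BiP, read 13.28 to 13.72 at 1 d and 13.86 to 14.08 at 8 h, without overlap but not called (-0.38 ± 0.22, adjusted p = 0.188), and its control mean was 11.97.

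The promoters of these chaperones are shown because genes with the same sequence element moved in opposite directions. Sequences are from RefSeq (GRCm38.p6) and 20 of the 22 endoplasmic reticulum genes and 16 of the 18 heat shock ones had an entry. Both strands of the 250 bases before each start site were searched for the endoplasmic reticulum stress element (CCAAT, any 9 bases, then CCACG) and for a heat shock element (3 alternating units of GAA and TTC, each 2 bases apart). The first was found in 8 of 20 endoplasmic reticulum chaperone promoters (40%) and in 35 of all 27025 genes of the table (0.13%). The 150 bases before the start site are printed 5′ to 3′ on the gene's strand, with the elements in capitals, for 4 called genes that hold it and for Hspd1, whose capitals mark 2 overlapping heat shock elements.
Creld2 (chr15:88819496-88819645, plus strand): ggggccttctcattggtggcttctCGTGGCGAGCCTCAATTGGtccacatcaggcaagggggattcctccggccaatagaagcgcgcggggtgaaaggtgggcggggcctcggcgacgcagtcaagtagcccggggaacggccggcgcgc
Syvn1 (chr19:6046426-6046575, plus strand): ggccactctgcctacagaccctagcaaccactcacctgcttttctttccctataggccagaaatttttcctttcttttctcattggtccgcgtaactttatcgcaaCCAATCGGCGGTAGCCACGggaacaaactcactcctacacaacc
Canx (chr11:50325674-50325823, minus strand): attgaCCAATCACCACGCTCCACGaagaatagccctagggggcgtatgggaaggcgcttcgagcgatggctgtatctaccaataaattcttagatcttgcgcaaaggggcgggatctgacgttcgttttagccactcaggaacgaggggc
Pdia6 (chr12:17266439-17266588, plus strand): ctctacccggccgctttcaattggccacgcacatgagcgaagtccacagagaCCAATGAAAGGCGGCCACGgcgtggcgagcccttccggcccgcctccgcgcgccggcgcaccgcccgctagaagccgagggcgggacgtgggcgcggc
Hspd1 (chr1:55087933-55088082, minus strand): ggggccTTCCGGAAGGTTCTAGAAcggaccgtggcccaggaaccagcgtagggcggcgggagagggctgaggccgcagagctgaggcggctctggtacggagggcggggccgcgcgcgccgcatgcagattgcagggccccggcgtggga
Creld2 (-1.92) and Syvn1 (-0.90, adjusted p = 0.00159), a ubiquitin ligase of misfolded proteins, were lower at 1 d. Canx (0.56) and Pdia6 (0.47) were higher. Calr, the luminal partner of calnexin, was called higher (0.32, adjusted p = 0.0102), but its call ended after quantile normalization (0.21, adjusted p = 0.124), after cyclic loess (0.10, adjusted p = 0.514) and without 1 d array 2 (0.25, adjusted p = 0.0542). The other 3 holders, Hspa5, Hsp90b1 and Dnajc3, were not called. Hsp90b1, the chaperone Grp94, was -0.25 (adjusted p = 0.103), and was called lower under 6 alternatives, among them quantile normalization (-0.38, adjusted p = 0.0155), cyclic loess (-0.47, adjusted p = 0.000954) and without 1 d arrays 1 and 2 (-0.36, adjusted p = 0.0329). Hspa5 was called lower after cyclic loess (-0.60, adjusted p = 0.0301) and in a fit of the 10 arrays alone (-0.38, adjusted p = 0.0121). The heat shock element stood in 2 of 16 heat shock chaperone promoters (12.5%) and in 139 of all genes (0.514%), and in 0 of the 14 promoters of cytosolic members. The 2 genes were Hspd1 and Hspe1, the mitochondrial chaperonins Hsp60 and Hsp10, which are transcribed in opposite directions from start sites 215 bases apart and share that stretch. Both were lower at 1 d, with differences of -0.87 ± 0.11 (adjusted p = 9.58e-08) for Hspd1 and -0.72 ± 0.13 (adjusted p = 2.32e-05) for Hspe1. A match is a description of the letters in this window and was not tested as a binding site.

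Genes of ribosome production and of the proteasome were mixed. Of 31 ribosome biogenesis factors 5 were higher and 8 lower, and of 31 proteasome subunits 4 higher and 6 lower (25.8% and 19.4% lower, beside 10.9% of all genes). The lower proteasome count was 3 after the median shift, 13 after quantile normalization and 20 after cyclic loess, where the median was -0.24, against -0.10 in the values as deposited. Npm1, the nucleolar protein nucleophosmin, rose by 0.87 ± 0.13, while Nop58, a core protein of the snoRNA particles, read 10.12, 8.81, 8.58, 8.59 and 8.30 at 1 d, against 9.77 to 10.11 at 8 h. Array 1 of the 1 d group was as high as the highest 8 h array and the other 1 d arrays were below all of them (difference of -1.05 ± 0.25, adjusted p = 0.000945). Ncl, nucleolin, rose by 0.73, but its 5 probe sets ranged from -0.01 to 0.73. Psmb5, a catalytic subunit of the proteasome, rose by 0.48 ± 0.08 and Psmd12, a subunit of its lid, fell by 0.36 (-0.59 without 1 d arrays 1 and 2). Without 1 d arrays 1 and 2, 12 ribosome biogenesis factors and 13 proteasome subunits were lower.

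Counts for genes of inflammatory signals were near the background. Of 15 chemokines 3 were higher and 1 lower, of 21 cytokines and proteins of their signalling 5 higher and 1 lower, of 23 acute phase proteins 4 higher and 3 lower, and of 20 interferon-induced genes 6 higher and 0 lower, shares of 20%, 23.8%, 17.4% and 30.0% higher beside 20.8% over all genes. Ccl6, a chemokine of macrophages and neutrophils, read 8.38 to 9.25 at 1 d and 6.39 to 7.47 at 8 h (rise of 1.82 ± 0.42, adjusted p = 0.000677). Cxcl2, the neutrophil attractant, read 4.85, 4.08, 6.06, 5.64 and 5.6 at 1 d, against 6.43, 5.18, 9.21, 7.71 and 8.35 at 8 h. The difference was -2.13 ± 0.37, with array 2 at 8 h inside the 1 d range and both groups above the control mean of 3.94. The 1 d mean of 5.25 was below the filter level, and no array of the other times was above it. Cxcl2 would not have passed the filter without its arrays at 8 h, so its difference is a description, although it is the 1 chemokine counted as lower. Ccl5, an attractant of T cells and monocytes, rose by 0.87, and Ccl2, the main monocyte attractant, differed by 0.28 ± 0.20 (adjusted p = 0.296).

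Il1b, an early cytokine of macrophages, read 5.80 and 5.84 in 1 d arrays 1 and 2 and 6.71 to 7.05 in arrays 3 to 5, against 5.68 to 6.13 at 8 h. Its rise of 0.51 ± 0.18 (adjusted p = 0.0257) lost its call without any one of 1 d arrays 3, 4 and 5 or 8 h arrays 4 and 5 (0.36 to 0.47, adjusted p up to 0.132), and was 0.93 without 1 d arrays 1 and 2. Of 10 leukocyte receptors and adhesion molecules 4 were higher and 0 lower (40% higher, beside 20.8% of all genes). Itgb2, the common beta chain of leukocyte integrins, read 6.28 to 7.03 at 1 d and 5.13 to 5.64 at 8 h (rise of 1.38 ± 0.24), and Icam1, its endothelial ligand, rose by 0.49. Gbp2, an interferon-induced GTPase, rose by 1.00 ± 0.21. Without 1 d arrays 1 and 2 the interferon-induced genes were 1 higher and 4 lower, with a median of -0.06, against 0.22 with all arrays.

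Saa1 and Lcn2, acute phase genes that hepatocytes switch on in inflammation, varied widely between arrays of the same time. Saa1, serum amyloid A, read 10.66, 14.05, 13.86, 14.24 and 14.20 at 1 d, against 12.38, 12.86, 13.92, 14.07 and 13.95 at 8 h. Lcn2, lipocalin 2, read 8.43, 11.01, 11.88, 12.35 and 12.59 at 1 d, against 8.06, 8.07, 12.47, 12.06 and 12.26 at 8 h. Low values of both genes were those of array 1 at 1 d and arrays 1 and 2 at 8 h, and the groups overlapped almost wholly (-0.04 ± 0.70, adjusted p = 0.974 for Saa1, and 0.67 ± 0.80, adjusted p = 0.558 for Lcn2). Apcs, serum amyloid P, rose by 0.90 ± 0.22 and Crp, C-reactive protein, by 0.85 ± 0.17. The 3 called falls, of Hamp (-1.01), Saa4 (-1.03) and Serpina3n (-0.78), had adjusted p of 0.0458, 0.03 and 0.0469, and these calls ended when 1 d array 1 was left out (-0.86, -0.44 and -0.51, adjusted p of 0.116, 0.261 and 0.205) and also without several other single arrays. Of the 23 acute phase genes, 11 were higher and 1 was lower when 1 d arrays 1 and 2 were left out, and 3 were higher and 6 lower after cyclic loess.

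Most markers of monocyte-derived macrophages were higher at 1 d. Of 18 such markers 13 were higher at 1 d and 0 lower (72.2%, beside 20.8% of all genes), with a median difference of 0.97, and the count without 1 d arrays 1 and 2 was again 13 higher and 0 lower. The mean level over the list was 8.38 to 8.84 in the 1 d arrays, against 7.22 to 7.44 in the 8 h arrays and 7.46 to 7.62 in controls. Many of them, such as the cathepsins and galectin 3, are lysosomal or secreted proteins that other cells also make. The 5 members that were not called were the monocyte chemokine receptor genes Ccr2 (-0.01, adjusted p = 0.941) and Cx3cr1 (0.04, adjusted p = 0.776), and Trem2 (0.15), Ms4a7 (0.17) and Fabp5 (-0.87, adjusted p = 0.136). With the mean of its probe sets, Ccr2 was 0.25 higher (adjusted p = 0.00329).

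Of 15 Kupffer cell markers 7 were higher and 2 lower (46.7% and 13.3%, beside 20.8% and 10.9% of all genes), and without 1 d arrays 1 and 2 the count was 4 higher and 3 lower. Clec4f, the lectin that defines Kupffer cells in the mouse, read 7.67 to 8.63 at 1 d and 8.23 to 8.49 at 8 h and was not called (-0.19 ± 0.14, adjusted p = 0.334), but was called lower without 1 d arrays 1 and 2 (-0.42, adjusted p = 0.0331). Its control mean was 8.78. Cd5l, a scavenger protein of tissue macrophages, rose by 0.92 ± 0.20 and Adgre1, the F4/80 antigen, by 0.65 ± 0.14, both without overlap. Cd163, the hemoglobin scavenger receptor, read 5.92 to 7.21 at 1 d and 7.39 to 8.15 at 8 h (difference of -1.03 ± 0.24, adjusted p = 0.000906). Of 12 neutrophil markers 4 were higher (33.3%) and 1 lower. S100a9, the partner of S100a8, rose by 1.99 ± 0.34 and Fpr2, a receptor for bacterial peptides, by 0.70 ± 0.13. The granule gene Ngp differed by -0.34 ± 0.09, and the median over the 12 markers was -0.04.

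Many genes of hepatocyte functions were lower at 1 d, and the medians of these lists were already below control at 8 h. Of 31 cytochrome P450 and drug metabolism genes 0 were higher and 19 lower (61.3%, beside 10.9% of all genes), with a median difference of -0.63. Their median difference from control was -1.40 at 1 d, against -0.65 at 8 h, and it was -0.78 at 2 d. In all 12 lists of hepatocyte functions the median difference from control was lower at 1 d than at any other of the 8 times after the injection, a description of levels with no test. The margin was small for some lists. For fatty acid oxidation this median was -0.45 at 1 d and -0.43 at 8 h. It was -0.45 and -0.39 for respiratory chain subunits, and -0.53 and -0.45 for hepatocyte transcription factors. For cholesterol synthesis this median was -1.12 at 1 d and -0.85 at 8 h although the median of the step itself was 0.11, so these summaries differ in sign. Alb, albumin, which marks the tissue as liver, read 14.76 to 14.85 at 1 d and 14.74 to 14.76 at 8 h (0.04 ± 0.04, adjusted p = 0.391), although such bright probe sets are near the top of the array's range, and its difference was -0.19 (adjusted p = 0.00561) after cyclic loess. Of 23 plasma protein genes 0 were higher and 3 lower (13.0%, near the 10.9% of all genes), and the lower count was 7 without 1 d arrays 1 and 2, 8 after quantile normalization and 16 after cyclic loess, where the median was -0.31. Among the 3 was Apoa1, the main protein of high-density lipoprotein (-0.27 ± 0.05).

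Cyp2e1, the enzyme that activates CCl4, read 12.07, 11.65, 12.91, 12.69 and 12.65 at 1 d, against 13.71, 13.63, 13.45, 13.70 and 13.47 at 8 h, with a control mean of 14.04. The groups did not overlap (difference of -1.20 ± 0.27, adjusted p = 0.000468), and the 2 lowest values were again 1 d arrays 1 and 2. Cyp1a2, another pericentral P450, read 6.99, 8.01, 8.42, 9.18 and 9.36 at 1 d, against 9.56 to 10.22 at 8 h (-1.50 ± 0.27), and its difference was -0.91 without those 2 arrays. Cyp2c37, Cyp2c50 and Cyp2c54, neighbouring genes of 1 subfamily that probes may not fully separate, differed by -2.70, -1.98 and -1.63.

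Many genes of both zones of the liver lobule were lower at 1 d. Of 21 pericentral genes 3 were higher and 9 lower, and of 18 periportal and urea cycle genes 1 was higher and 8 lower, with medians of -0.29 and -0.46. The shares lower were 42.9% and 44.4%, beside 10.9% of all genes, and the shares higher 14.3% and 5.56%, beside 20.8%. Glul, the glutamine synthetase of the last cells around the central vein, read 8.11, 8.22, 9.05, 8.87 and 8.83 at 1 d, against 10.2, 10.10, 10.4, 10.15 and 10.68 at 8 h. Every 1 d array was lower, by -1.69 ± 0.18 (adjusted p = 1.49e-09), and the control mean was 11.41. Asl, argininosuccinate lyase of the urea cycle, read 8.45, 9.84, 9.50, 9.29 and 9.45 at 1 d, against 10.71 to 11.36 at 8 h, where it was above its control mean of 10.49 (-1.70 ± 0.18, adjusted p = 1.11e-09). Cps1, the first enzyme of the cycle, fell by 0.55, Cyp2f2, a periportal P450, by 1.23 and Hpd, an enzyme of tyrosine breakdown, by 1.15. Lect2, a secreted chemotactic protein of hepatocytes, was among those that went the other way, with a rise of 1.34 ± 0.16. Cdh1, the adhesion protein E-cadherin, read 8.62 to 10.28 at 1 d and 6.80 to 7.90 at 8 h, with a control mean of 9.27 (rise of 2.07 ± 0.25). The pericentral count without 1 d arrays 1 and 2 was 2 higher and 6 lower, with a median of -0.04.

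Of 24 genes of bile acid synthesis and transport 1 was higher and 12 lower (50% lower, beside 10.9% of all genes), with a median of -0.62. Cyp8b1, the sterol 12 alpha-hydroxylase, read 6.88, 9.09, 8.6, 7.11 and 7.5 at 1 d, against 10.64, 10.30, 9.47, 10.32 and 9.70 at 8 h (-2.25 ± 0.47, adjusted p = 0.000199). Cyp7b1, an oxysterol hydroxylase, fell by 1.64. Cyp7a1, the rate-limiting enzyme, read 5.45, 8.07, 5.99, 5.70 and 5.99 at 1 d, against 8.34, 9.31, 7.16, 7.28 and 5.91 at 8 h. The groups overlapped and its call (-1.36 ± 0.51, adjusted p = 0.0352) ended without any one of 1 d arrays 1, 3, 4 and 5 or 8 h arrays 1 and 2 (-0.94 to -1.30, adjusted p up to 0.16). Nr0b2, the repressor SHP that acts on Cyp7a1, was the gene that was higher (1.21 ± 0.30), and Nr1h4, the bile acid receptor FXR, fell by 0.73.

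Of 18 fatty acid synthesis genes 0 were higher and 9 lower (50% lower, beside 10.9% of all genes), with a median of -0.65. Thrsp read 7.94, 7.79, 6.66, 6.49 and 7.0 at 1 d, against 11.08, 11.19, 10.13, 11.21 and 9.86 at 8 h, without overlap. Pklr, the liver pyruvate kinase, fell by 1.53 ± 0.22. Fasn, fatty acid synthase, differed by -0.65 (adjusted p = 0.0495), and that call was lost when any 1 array other than 1 d array 2 was left out (-0.58 to -0.69, adjusted p up to 0.103). Of 20 cholesterol synthesis genes 4 were higher and 3 lower (20% and 15%, near the shares of all genes), and 2 were higher and 3 lower without 1 d arrays 1 and 2. Hmgcs1, which makes HMG-CoA, read 10.63, 11.02, 10.61, 9.97 and 10.2 at 1 d, against 8.53, 9.85, 8.72, 8.79 and 8.20 at 8 h, with a control mean of 11.82. It was thus higher at 1 d (1.67 ± 0.29, adjusted p = 1.20e-05) while still below control. Msmo1, a later enzyme, rose by 1.06, and Tm7sf2 and Fdps, also of the pathway, fell by 0.81 and 0.76.

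Glucose and fuel genes were divided. Of 13 genes of glucose output and glycogen 1 was higher and 6 lower (46.2% lower, beside 10.9% of all genes), with a median of -0.48 that was -0.20 without 1 d arrays 1 and 2. Slc37a4, the glucose 6-phosphate transporter, read 7.89 to 9.07 at 1 d and 10.24 to 10.59 at 8 h (-2.01 ± 0.18, adjusted p = 1.38e-11). Gys2, glycogen synthase, and Pygl, glycogen phosphorylase, were both lower (-1.75 and -1.32), with their lowest values in 1 d array 1. Ppp1r3c, which targets a phosphatase to glycogen, rose by 1.71 ± 0.28. Of 23 fatty acid oxidation genes 6 were higher and 3 lower (26.1% and 13.0%, near the shares of all genes), but 6 higher and 8 lower after quantile normalization and 4 higher and 11 lower after cyclic loess, so their balance depends on the scaling. Pdk4, which spares glucose, rose by 1.39 with 1 d array 2 inside the 8 h range, and Bdh1, of ketone body metabolism, by 0.82. Acaa1b, a peroxisomal thiolase, fell by 1.26 and Cpt1a, which admits fatty acids to mitochondria, by 0.64. Of 27 respiratory chain subunits 1 was higher and 7 lower (25.9% lower), with 2 and 2 after the median shift and 0 and 17 after cyclic loess, and Sdha and Sdhb, subunits of complex II, fell by 0.42 and 0.40.

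Of 20 hepatocyte transcription factors tested 2 were higher and 5 lower (10% and 25%, beside 20.8% and 10.9% of all genes), with a median of -0.02. The lower count was 3 without 1 d array 1, without 1 d arrays 1 and 2 together, and in a fit of the 10 arrays alone. Cebpa, which maintains the mature hepatocyte, read 8.00 to 9.27 at 1 d and 9.11 to 9.56 at 8 h (-0.71 ± 0.16), and Cebpb, its counterpart in injury and regeneration, differed by -0.70, which became -0.46 (adjusted p = 0.102) without 1 d arrays 1 and 2. Hnf4a, a central regulator of hepatocyte genes, read 10.33 in 1 d array 1 and 11.01 to 11.55 in the other 1 d arrays, against 11.16 to 11.68 at 8 h. Its call (-0.39 ± 0.12, adjusted p = 0.00954) ended without that array (-0.22, adjusted p = 0.088). Of 16 genes of the growth hormone axis 0 were higher and 6 lower (37.5% lower, beside 10.9% of all genes). Their median was -0.54, and it was -0.14 without 1 d arrays 1 and 2. Hsd3b5, a male-biased steroid enzyme, read 5.62 and 6.16 in 1 d arrays 1 and 2 and 8.29 to 9.20 in arrays 3 to 5, against 8.73 to 10.4 at 8 h, and its difference of -1.68 became -0.56 (adjusted p = 0.245) without the 2 low arrays.

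**Figure D3:**
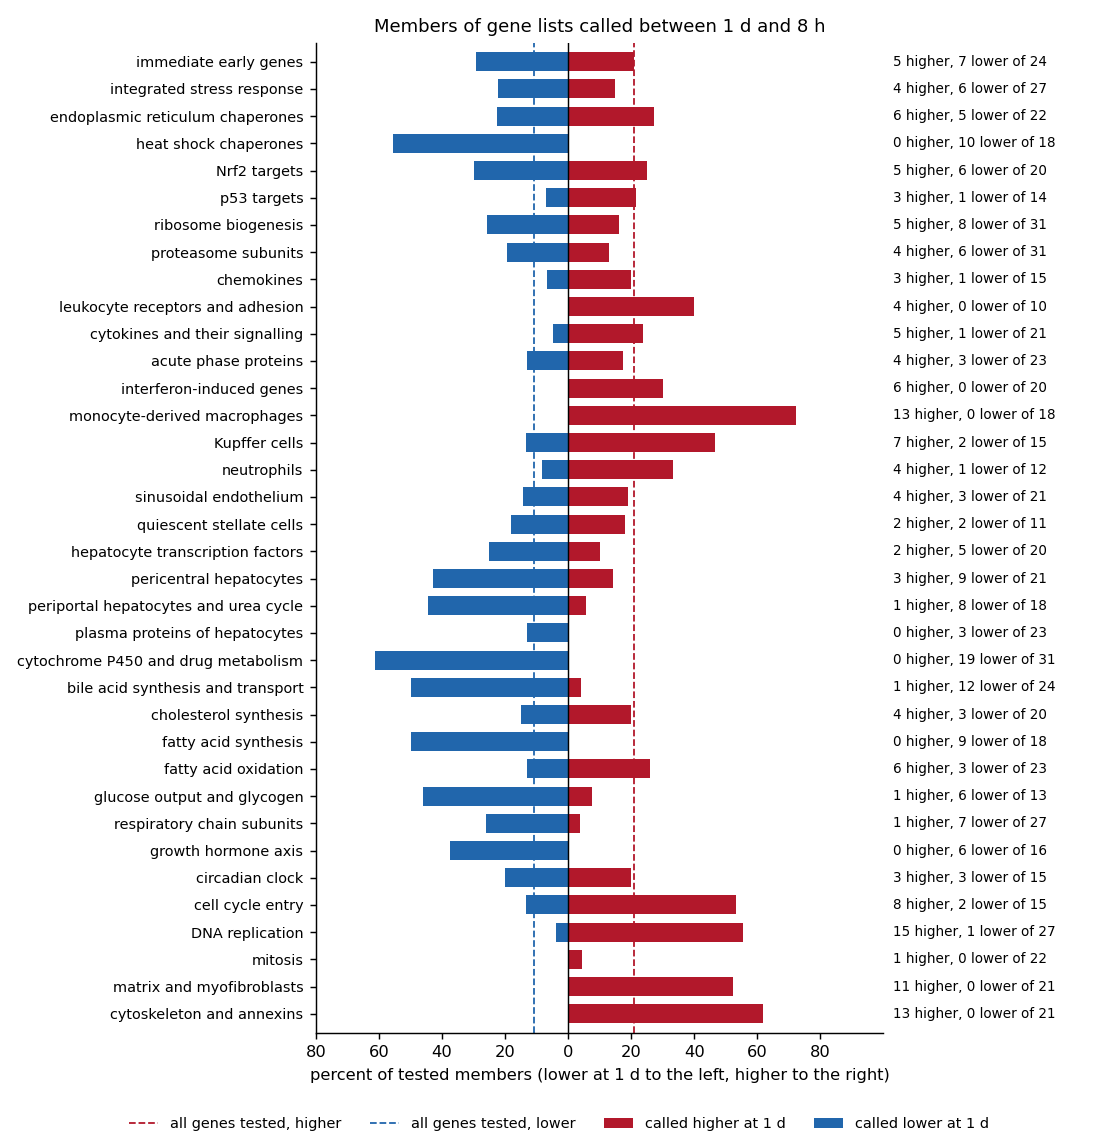
Share of the tested members of each gene list (lists with at least 10 tested members) called higher at 1 d than at 8 h (red, to the right) or lower (blue, to the left), with dashed lines at the shares of all 13239 genes tested (20.8% higher, 10.9% lower). Monocyte-derived macrophage markers (13 of 18) lie furthest to the right and cytochrome P450 and drug metabolism genes (19 of 31) furthest to the left.

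Of 21 cytoskeletal and annexin genes 13 were higher at 1 d and 0 lower, with a median of 0.59, and of 21 matrix and myofibroblast genes 11 were higher and 0 lower, with a median of 0.58. These shares of 61.9% and 52.4% higher stand beside 20.8% of all genes. Tubb5, a beta tubulin, read 10.49 to 10.92 at 1 d and 8.71 to 9.37 at 8 h (1.64 ± 0.13, adjusted p = 6.89e-13). Mmp13, a collagenase, read 5.63, 5.71, 6.10, 6.48 and 6.20 at 1 d, against 3.87, 3.76, 3.97, 2.99 and 5.27 at 8 h (2.05 ± 0.40). Mmp13 passed the filter only through its arrays at 1 d, so its difference is a description, although it is counted among the 11 higher genes. Ccn2, connective tissue growth factor, rose by 1.47 ± 0.25, and Timp1, an inhibitor of matrix proteases, by 0.58 ± 0.18. Acta2, the smooth muscle actin of myofibroblasts, rose by 0.58 ± 0.19, but its 3 probe sets ranged from -0.26 to 0.58 and the call ended with their mean (0.09, adjusted p = 0.374). Col1a1, the main fibrillar collagen, read 5.72 to 5.99 at 1 d and 5.67 to 5.92 at 8 h (-0.03 ± 0.12, adjusted p = 0.853). Markers of monocyte-derived macrophages, given above, moved with these lists, and their part in the counts was not tested.

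Of 15 genes of cell cycle entry 8 were higher and 2 lower (53.3% and 13.3%, beside 20.8% and 10.9% of all genes). Cdk4, the kinase of G1, read 7.43 to 7.94 at 1 d and 6.71 to 7.25 at 8 h (0.72 ± 0.09, adjusted p = 6.11e-08), without overlap. Ccnd1, cyclin D1, its partner, read 8.01, 9.21, 8.15, 8.05 and 8.00 at 1 d, against 7.42 to 7.86 at 8 h. All its 1 d arrays were higher (0.68 ± 0.24, adjusted p = 0.0282), but its call ended without 1 d array 2 (0.45, adjusted p = 0.15), 8 h array 1 (0.66, adjusted p = 0.0538) or 8 h array 3 (0.63, adjusted p = 0.0598). Ccne2, cyclin E2, differed by 0.73 ± 0.21, and by 1.29 without 1 d arrays 1 and 2. It read 3.65 and 4.40 in 1 d arrays 1 and 2 and 5.19 to 5.64 in arrays 3 to 5, against 3.90 to 4.39 at 8 h. Its means of 4.87 at 1 d and 4.14 at 8 h were both below the filter level. Ccne2 passed the filter only through its arrays at 1 d, so its difference is a description, although it is counted among the 8 higher genes. E2f3, a factor of S-phase genes, fell by 0.51. Btc and Egfr, a growth factor and its receptor on hepatocytes, were lower by -1.28 ± 0.19 and -1.26 ± 0.39, and Egfr read 8.02 in 1 d array 1 and 9.51 to 10.62 in the other 1 d arrays, against 10.65 to 11.33 at 8 h. Without that array the difference for Egfr was -0.83 (adjusted p = 0.0767), and without 1 d arrays 1 and 2 it was -0.60 (adjusted p = 0.255).

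Of 27 DNA replication genes 15 were higher and 1 lower (55.6% higher, beside 20.8% of all genes), with a median of 0.42. Mcm6, a subunit of the replicative helicase, read 7.58, 7.79, 8.47, 8.22 and 8.23 at 1 d, against 6.13 to 6.45 at 8 h, where the control mean was 6.22. Its rise was 1.78 ± 0.19 (adjusted p = 9.07e-10), although its 3 probe sets ranged from -0.03 to 2.66. Rfc3, of the clamp loader, rose by 1.07 ± 0.16. Rrm2, the regulated subunit of ribonucleotide reductase, went the other way, with 5.51 to 6.23 at 1 d and 6.48 to 7.36 at 8 h (-1.17 ± 0.22). Without 1 d arrays 1 and 2 the count was 6 higher and 1 lower. Of 22 mitosis genes 1 was higher and 0 lower, and Mki67, the proliferation marker, read 4.15 to 4.73 at 1 d and 4.43 to 5.04 at 8 h (-0.20 ± 0.19, adjusted p = 0.465). All these Mki67 values were below the filter level. The 1 higher gene had means of 5.16 at 1 d and 4.55 at 8 h, also below it, so small changes of such dim genes may be missed. The median difference from control of the mitosis genes was -0.22 at 1 d and -0.15 at 8 h, and it was 2.40 at 2 d.

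**Figure D4:**
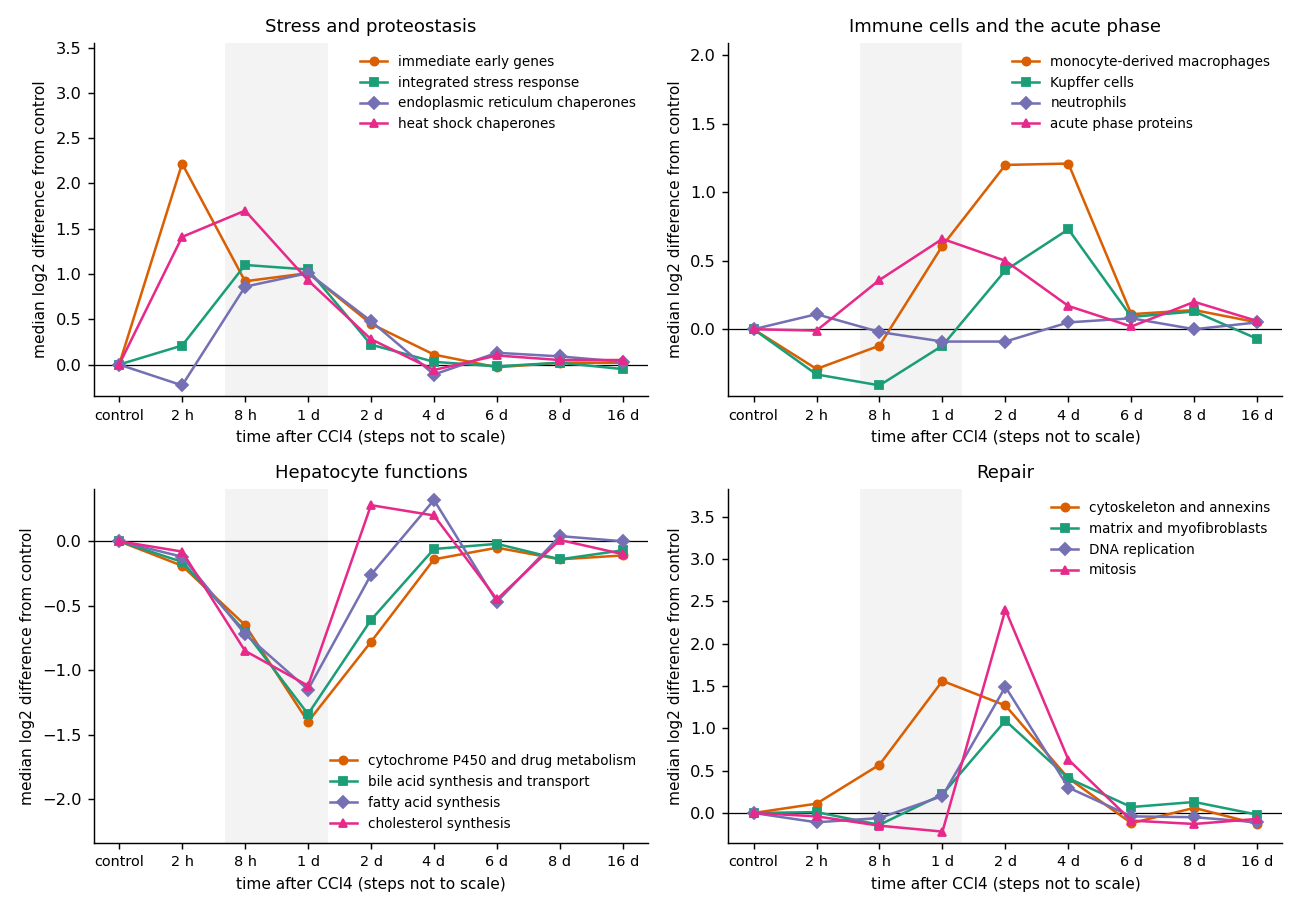
Median log2 difference from the control mean over the tested members of 16 gene lists at control and the 8 times after CCl4, with the times evenly spaced and the step from 8 h to 1 d shaded. Cytochrome P450 genes are at -1.40 at 1 d, against -0.65 at 8 h, monocyte-derived macrophage markers are at 0.61 at 1 d, against -0.12 at 8 h, and mitosis genes are at 2.40 at 2 d.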

How the data were processed

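The deposited values are log2 expression values per probe set on Affymetrix mouse arrays, which the authors obtained by RMA with oligo 1.52.0, per the submitters' processing notes. RMA subtracts background, brings arrays to 1 distribution and summarises probes, so a shift shared by most genes is removed and bright probe sets are compressed. Array precision is limited by the number of arrays. No column was left unused (0).

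Among the probe sets naming exactly 1 gene, the brightest on average over the arrays stood for its gene, and 13239 of 18193 genes were tested, those reaching 5.56 (log2) in at least 5 arrays. A linear model over all 46 arrays and 9 groups (37 residual degrees of freedom) was fitted with limma 3.58.1 in R 4.3.3, and the contrast 1 d minus 8 h was adjusted by the Benjamini-Hochberg method at 0.05. Summaries used Python 3.11.15 with pandas 2.3.3 and numpy 2.4.6, figures matplotlib 3.10.9. The fit was tested on simulated data. Array measures were compared with two-sided exact permutation tests.

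The named genes are the 15 largest called rises and the 15 largest called falls without overlap, up to 3 called genes each way per list, and a fixed panel. Hspd1, Hspe1, Syvn1, Calr, Hsp90b1 and Dnajc3 are named by the promoter motif, and Ccr2, Cx3cr1, Trem2, Ms4a7 and Fabp5 as the uncalled members of the macrophage list, chosen after their values were seen. The members and the 44 lists (789 symbols matched, 738 tested) were chosen with earlier results of these data known. Same-numbered arrays were not treated as pairs in the main fit, and the correlations of their deviations are given below. Alternatives changed the scaling, the filter, the probe set rule, the fit and the arrays used.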

Additional observations from a re-analysis of the deposited data

Results flagged for a closer look

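Within each group of 5 arrays, a highest or lowest value was picked out when its gap to the next was large beside the whole range of the group (Dixon's test). This was so in 17 of 302 groups checked, and chance alone picks about 1 in 20. Of these, 10 were values of 1 d array 1 and 4 were values of 1 d array 2.

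Among genes lower at 1 d than at 8 h, 1 d array 1 was the highest of its group for Hspa1a (7.0), Txnrd1 (10.69) and Nop58 (10.12), and the lowest for the metabolic genes Acss2 (6.08), Gys2 (5.96) and Pygl (8.25) and for Nlrp12 (5.41). The same array was the highest for Gla (7.49) and the lowest for Pdia6 (10.91) and for the acute phase gene Saa1 (10.66). Array 2 at 1 d was the highest for Sgk1 (11.45), Cyp7a1 (8.07) and Ccnd1 (9.21) and the lowest for Cd68 (7.59).

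At 8 h, array 3 was the highest for Ccl2 (6.44), array 5 the lowest for the chaperone gene Hsp90b1 (12.47) and array 1 the highest for the median of all values (5.58).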

How the results depend on the processing

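All 147 genes named and the counts above were recomputed under each alternative. Of 3368 gene results, 3184 kept their direction and side of the threshold, 154 lost a call, 11 gained one and 19 changed sign. Fitting only the 10 arrays of 1 d and 8 h called 2746 genes, 802 of them lower. Its estimate of spread rests on fewer arrays and on these 2 groups alone. That fit ended the calls of Atf3, Ddit3, Hmox1, Il1b, Cyp7a1, Hnf4a, Hsd3b5, Ccne2, Saa4, Serpina3n, Psmd12 and Crp. The Holm adjustment, which is stricter by construction, called 1060, 851 higher and 209 lower. Leaving out single arrays gave 3607 to 4116 called genes, and leaving out 1 d arrays 1 and 2 together 3924. The replicate number as a block gave 4182 called genes, and same-numbered arrays had correlations of deviations of -0.274 to 0.283, with the best partner under the same number for 3 of 5. Of the genes that changed sign, Saa1 ranged from -0.30 to 0.65 over single arrays left out, and was 0.47 with array weights and 0.66 without 1 d arrays 1 and 2. Cdkn1a ranged from -0.29 to 0.09 and Ccr2 from -0.03 to 0.01. Ccr2 was 0.02 after a median shift and 0.25 with the mean of its probe sets, where Cx3cr1 was -0.04. After cyclic loess Alb was -0.19 and Col1a1 0.01. Apart from fits on fewer arrays and the stricter adjustment, the cause was not tested. Dim probe sets near the filter level limit what falls can be seen.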

Other observations

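The circadian clock genes are given because the time of day of sampling would matter for them. Of 15 tested, 3 were higher and 3 lower at 1 d (20% each way, beside 20.8% higher and 10.9% lower of all genes). The higher count was 1 under several alternatives, among them a further quantile normalization, array weights and the replicate number as a block. The lower count was 5 in a fit of the 10 arrays alone and 1 without 1 d array 1. Cry1, a repressor of the clock, read 5.77, 5.55, 7.14, 6.71 and 6.44 at 1 d, against 4.48, 4.78, 4.83, 4.57 and 4.62 at 8 h, with a control mean of 4.19. It lay higher in every 1 d array (1.66 ± 0.32), with the 8 h and control levels below the filter level of 5.56. Cry1 passed the filter only through its arrays at 1 d, so its difference is a description. Nr1d1, the repressor REV-ERB alpha, read 6.41 to 6.89 at 1 d and 7.05 to 7.43 at 8 h (-0.58 ± 0.15, adjusted p = 0.0023). Without 1 d arrays 1 and 2, 1 clock gene was higher and 2 were lower. Time of day was not given and its part was not tested.

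For markers of the other cells of the liver most shares were near those of all genes (20.8% higher, 10.9% lower) or rested on few markers. Of 7 T and NK cell markers 0 were higher and 1 lower, of 5 B cell markers 0 and 1, of 21 markers of sinusoidal endothelium 4 and 3, and of 11 of quiescent stellate cells 2 and 2. Without 1 d arrays 1 and 2 the endothelial count was 1 higher and 2 lower and the stellate count 0 and 2, and 7 endothelial markers were lower after cyclic loess. Of 5 cholangiocyte markers 2 were higher, Cd24a (1.28 ± 0.32), a surface glycoprotein, and Sox9 (0.83 ± 0.24), a factor of bile duct cells. The Cd24a means of 5.40 at 1 d and 4.12 at 8 h were both below the filter level. With a stricter filter 0 cholangiocyte markers were higher. The erythroid marker that was tested was lower, as were 2 of 4 markers of exocrine pancreas, and neither of the 2 adipose and mesothelial markers tested was called. Of 9 mitogens and their receptors 1 was higher and 3 lower, and of 5 oncofetal genes 1, again Cd24a, was higher. With the stricter filter 0 oncofetal genes were higher.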
